A study of Homo sapiens with 18 samples.

Results

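The genes described here are 10 members of the activin and bone morphogenetic protein (BMP) pathway: the antagonists FST and FSTL3, the activin subunits INHBA and INHBB, the ligand BMP4, the inhibitory SMADs SMAD6 and SMAD7, and the target genes ID1, ID2 and ID3. They were taken by gene symbol from the array's annotation, which named 20046 genes and assigned 14 of the 47231 probes to these 10. FST was chosen for its lower level in OTX015-treated MDA-MB-231 cells, so its values in that contrast are given as a description, with no test. Expression was measured on Illumina HumanHT-12 arrays in a pair of established human lines of triple-negative breast cancer, MDA-MB-231 cells and MDA-MB-468 cells. Cells received OTX015 (MK-8628), an inhibitor of the bromodomain and extra-terminal (BET) proteins that read acetylated histones, received its vehicle DMSO, or were left untreated, and RNA was taken after 4, 8 and 24 h. The dose of OTX015 was 75 nM for MDA-MB-231 cells, while MDA-MB-468 cells received 650 nM. Neither line was profiled at the other's dose, so line and dose cannot be told apart. Each of the 18 combinations of line, treatment and time was 1 array, so the 3 times served as the replicates of a treatment, and p-values measure only the spread between these arrays. Where times were compared, the untreated and DMSO arrays of a time served as its replicates instead.

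Values are log2 signals after background correction and quantile normalization. A probe was counted as measured on an array where its log2 signal exceeded the detection floor, the 95th percentile of 457 probes for olfactory receptors, genes of the nasal epithelium. The 9 MDA-MB-231 arrays had floors of 6.33 to 6.43, and the 9 arrays of the other line had floors of 6.31 to 6.46. Probes above it on at least 3 arrays were tested with limma, which kept 23631 probes in all and 11 of the 14 member probes, covering 9 of the 10 genes. A probe passed where its Benjamini-Hochberg adjusted p was at most 0.05 and its log2 fold change at least 0.5 in size. Arrays of MDA-MB-231 had mean raw intensities of 316 to 409, and those of MDA-MB-468 had 174 to 503, with the OTX015 8 h array of MDA-MB-468 the dimmest. The line labels were checked against epithelial and mesenchymal genes and were borne out in part. Among epithelial genes, CDH1 and KRT5 were below the floor on all 9 MDA-MB-231 arrays and averaged 10.90 and 10.09 in MDA-MB-468. EPCAM and KRT19 were above the floor on all 9 arrays of each line. EPCAM averaged 9.31 for MDA-MB-231 cells, against 12.99 for MDA-MB-468 cells, and KRT19 averaged 11.02, against 13.11. KRT18 did not separate the lines, with a mean of 7.92 for MDA-MB-231 cells, against 8.00 for MDA-MB-468 cells. The mesenchymal gene VIM averaged 13.44 in MDA-MB-231, against 9.18 in MDA-MB-468, while FN1 and SPARC were below the floor in both lines.

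Activins and BMPs are secreted dimers of the TGF-beta family. They bind paired serine/threonine kinase receptors, and the activated receptors phosphorylate SMAD proteins, which enter the nucleus with the common partner SMAD4. Activin B is a dimer of the INHBB product and activin A of the INHBA product. Follistatin, encoded by FST, and the follistatin-like protein encoded by FSTL3 bind activins and keep them from their receptors. BMP signals induce the ID genes, whose products pair with basic helix-loop-helix factors and block their binding to DNA, and also SMAD6 and SMAD7, which act back on the pathway as inhibitors. In breast cancer the pathway is studied for its parts in differentiation, invasion and self-renewal.

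The sequence before the transcription start is shown for the 5 members that carried the largest responses to OTX015, FST, INHBB and the 3 ID genes, because the ID genes moved together in 1 line and FST and INHBB lay on the other side of the scale. All 10 members had an entry among the RefSeq promoters (build GRCh38.p14). Each line below holds the 250 bases before the annotated start, 5′ to 3′ on the gene's own strand. Capitals mark matches, on either strand, to any of 5 short motifs: GGCGCC and CAGAC (SMAD boxes), CACGTG (the E-box), TATAAA (the TATA box) and CCAAT (the CCAAT box). The windows lie at chr5:53480379-53480628 (plus strand) for FST, chr2:120345886-120346135 (plus) for INHBB, chr20:31605039-31605288 (plus) for ID1, chr2:8681806-8682055 (plus) for ID2 and chr1:23559502-23559751 (minus) for ID3.
FST: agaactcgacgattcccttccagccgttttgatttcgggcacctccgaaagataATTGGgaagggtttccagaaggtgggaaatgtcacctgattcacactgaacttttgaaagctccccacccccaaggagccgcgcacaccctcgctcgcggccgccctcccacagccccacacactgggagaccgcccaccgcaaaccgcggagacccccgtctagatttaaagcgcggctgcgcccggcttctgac
INHBB: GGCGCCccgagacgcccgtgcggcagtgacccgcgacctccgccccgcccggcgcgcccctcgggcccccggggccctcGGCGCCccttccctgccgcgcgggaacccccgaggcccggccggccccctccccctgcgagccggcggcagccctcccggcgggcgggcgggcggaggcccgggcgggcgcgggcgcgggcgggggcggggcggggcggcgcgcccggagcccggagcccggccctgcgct
ID1: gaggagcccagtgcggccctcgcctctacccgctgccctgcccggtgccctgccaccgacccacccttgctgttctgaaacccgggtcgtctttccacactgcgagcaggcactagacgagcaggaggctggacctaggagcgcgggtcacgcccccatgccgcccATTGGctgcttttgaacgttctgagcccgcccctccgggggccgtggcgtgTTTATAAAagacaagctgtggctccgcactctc
ID2: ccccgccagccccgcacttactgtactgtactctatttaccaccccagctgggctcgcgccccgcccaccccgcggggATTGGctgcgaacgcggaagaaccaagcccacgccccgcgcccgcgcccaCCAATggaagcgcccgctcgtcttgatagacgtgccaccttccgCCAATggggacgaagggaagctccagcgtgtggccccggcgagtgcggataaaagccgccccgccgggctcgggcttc
ID3: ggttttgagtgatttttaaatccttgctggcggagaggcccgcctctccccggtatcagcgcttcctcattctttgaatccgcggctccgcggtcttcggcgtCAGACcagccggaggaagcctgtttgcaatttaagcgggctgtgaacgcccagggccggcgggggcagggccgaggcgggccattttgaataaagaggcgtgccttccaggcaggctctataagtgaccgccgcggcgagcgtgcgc

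The 3 ID windows did not share a motif. ID1 held 1 CCAAT match and a TATA box whose matches on both strands overlap, ID2 held 3 CCAAT matches, and ID3 held 1 CAGAC match. INHBB held 2 GGCGCC matches, and FST held 1 CCAAT match on the other strand. Over all 35116 promoter windows of this length, 16.4% held GGCGCC, 38% CAGAC, 6.34% CACGTG, 10.7% TATAAA and 32% CCAAT. A match is a description of the letters and not of a bound site.

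FST was the member with the largest difference between the lines and, by the way it was chosen, the largest response in MDA-MB-231. Its brighter probe (ILMN_1700081) read 10.14, 9.76 and 9.54 at 4, 8 and 24 h in OTX015-treated MDA-MB-231 cells, against 10.87, 10.59 and 10.46 with DMSO and 10.81, 10.72 and 10.56 in untreated cells. All 3 OTX015 arrays lay below all 6 undrugged arrays, and the mean was 9.81 ± 0.31 with OTX015 and 10.64 ± 0.21 with DMSO (SD, n = 3 time points each). The log2 difference from DMSO was -0.82, or 1.77-fold lower. Levels are relative to the rest of the array, and fewer expressing cells and less RNA per cell cannot be told apart. The second FST probe (ILMN_1712896) was dimmer and read 7.60, 7.62 and 7.39 with OTX015, against 7.94, 7.93 and 8.01 with DMSO and 8.06, 7.87 and 7.97 without treatment, a log2 difference of -0.42 from DMSO. Both probes thus placed the OTX015 arrays below every undrugged array of the line. Of all 23631 probes tested, 0.427% passed in this contrast, and 7.61% had 3 OTX015 arrays outside the range of the 6 undrugged arrays. FST was selected on these values, so nothing is read from its place among them.

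In MDA-MB-468 the picture of FST was limited by its low level. The brighter probe read 6.14, 6.08 and 6.16 with OTX015, below the floor on all 3 arrays, against 6.94, 6.47 and 6.46 with DMSO and 7.05, 6.71 and 6.45 in untreated cells. The OTX015 arrays again lay below all 6 undrugged arrays, but only a bound can be given: FST was at least 1.18-fold lower with OTX015 than with DMSO. In this line 12.7% of all probes had OTX015 arrays outside the undrugged range, above or below. The fitted log2 fold change was -0.50 (SE 0.130, adjusted p = 0.0701), which did not pass. This fit and its alternatives rest on OTX015 signals below the floor, so nothing beyond the bound is read from them. The fold change passed under 3 of the alternatives. These were untreated and DMSO arrays together as the reference (-0.55, adjusted p = 0.0201), a background offset of 16 (-0.83, adjusted p = 0.0470) and leaving out the OTX015 24 h array (-0.63, adjusted p = 0.0437). Under every other alternative it did not pass, with values as small as -0.24 and adjusted p up to 0.523. The second probe was below the floor on all 9 arrays of this line.

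Without drug, FST was far higher in MDA-MB-231 than in MDA-MB-468. FST was not chosen on this contrast, but the DMSO arrays of MDA-MB-231 enter both. A fall can be read only from a signal above the floor, so the choice favoured probes high in MDA-MB-231. This contrast is thus not independent of the choice, and FST gets no p-value or rank in it. The brighter probe averaged 10.67 ± 0.16 over the 6 undrugged MDA-MB-231 arrays and 6.68 ± 0.26 over the 6 undrugged MDA-MB-468 arrays (SD), a log2 difference of 3.99 (SE 0.078). The second probe was at least 3.08-fold higher in MDA-MB-231, since it did not reach the floor in MDA-MB-468. In this contrast 34.1% of all probes passed, so passing alone was common, and the difference of the brighter FST probe was 15.9-fold.

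**Figure D1:**
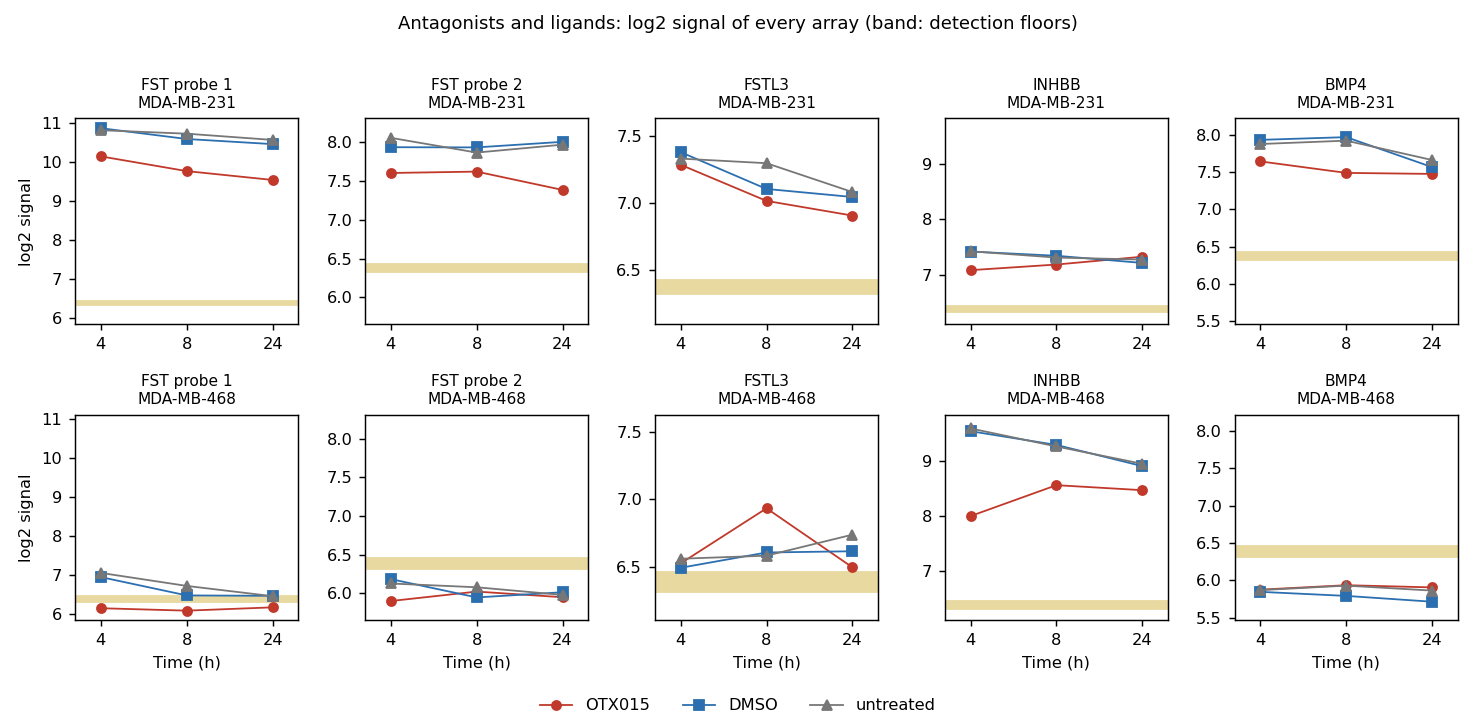
Log2 signal (vertical axis) of the FST, FSTL3, INHBB and BMP4 probes on each array at 4, 8 and 24 h (horizontal axis, evenly spaced), with MDA-MB-231 in the upper row, MDA-MB-468 in the lower row, and the band marking the detection floors of that line's arrays. The OTX015 points of the brighter FST probe (probe 1) lie below the DMSO and untreated points at every time in both lines, those of INHBB do so in MDA-MB-468, and BMP4 lies under the band in MDA-MB-468.

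FSTL3, the second antagonist, was measured on all 18 arrays and did not respond past the thresholds in either line. In MDA-MB-231 it read 7.28, 7.02 and 6.91 with OTX015, against 7.38, 7.10 and 7.05 with DMSO and 7.33, 7.30 and 7.08 in untreated cells, a log2 fold change of -0.11 from DMSO (95% interval -0.26 to 0.05, adjusted p = 0.535). In MDA-MB-468 the 3 OTX015 arrays read 6.52, 6.93 and 6.49, inside a DMSO range of 6.49 to 6.61 but for the 8 h array, which is also the dimmest array of the line. The log2 fold change there was 0.08 (95% interval -0.20 to 0.36, adjusted p = 0.769), and it was -0.06 without that array. Without drug FSTL3 was higher in MDA-MB-231, by 0.61 on the log2 scale (SE 0.070, adjusted p = 3.5e-06). It fell under the threshold of size with no background correction (0.48), with the deposited values (0.46) and without the 4 h arrays (0.498).

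INHBB, the subunit of activin B, was the ligand with the largest response, seen in MDA-MB-468. In MDA-MB-468 it read 7.99, 8.55 and 8.46 at 4, 8 and 24 h with OTX015, against 9.53, 9.28 and 8.90 with DMSO and 9.58, 9.26 and 8.94 in untreated cells. The 3 OTX015 arrays lay below all 6 undrugged arrays, and 12.7% of all probes in this line had OTX015 arrays outside the range of the undrugged arrays in this way, above or below. The log2 fold change against DMSO was -0.90 (SE 0.211, 95% interval -1.39 to -0.41), with an adjusted p of 0.0502 that missed the threshold by a narrow margin. It passed under 5 alternatives, among them untreated and DMSO arrays together as the reference (-0.91, adjusted p = 0.0192). Under the rest of the 12 fits with arrays left out and the 11 other settings it did not pass, with adjusted p up to 0.315. Without the OTX015 4 h array the difference was smaller and passed (-0.58, adjusted p = 0.0154), and without the OTX015 24 h array it was larger and passed (-1.13, adjusted p = 0.0330). In MDA-MB-231 INHBB read 7.08, 7.18 and 7.32 with OTX015, against 7.42, 7.34 and 7.21 with DMSO and 7.42, 7.31 and 7.27 in untreated cells, a log2 fold change of -0.13 (95% interval -0.31 to 0.05, adjusted p = 0.514). The difference between the lines' responses, 0.77 (MDA-MB-231 minus MDA-MB-468, SE 0.244), did not pass (adjusted p = 0.135). It passed with untreated and DMSO arrays together as the reference (0.78, adjusted p = 0.0483) and without the OTX015 24 h array of MDA-MB-468 (1.002, adjusted p = 0.0236). Under every other alternative it did not pass, with adjusted p up to 0.524.

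Without drug INHBB was lower in MDA-MB-231 than in MDA-MB-468, with a log2 difference of -1.92 (SE 0.122, adjusted p = 6.5e-09), the reverse of FST. INHBA, the subunit of activin A, had 1 probe (ILMN_1719547), which was below the floor on all 18 arrays and gave no comparison. BMP4, a ligand of the BMP branch, was measured on the 9 MDA-MB-231 arrays and on none of MDA-MB-468. It read 7.64, 7.49 and 7.47 with OTX015, against 7.93, 7.97 and 7.57 with DMSO and 7.88, 7.92 and 7.66 in untreated cells. Its OTX015 arrays lay below both undrugged arrays of the same time at 4, 8 and 24 h, but the 4 h OTX015 array overlapped the 24 h undrugged arrays. The log2 fold change was -0.29 (SE 0.080, adjusted p = 0.0696), under the threshold of size as well. Without drug BMP4 was at least 2.79-fold higher in MDA-MB-231.

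The inhibitory SMADs did not respond past the thresholds in either line. In MDA-MB-468 SMAD6 read 7.73, 7.22 and 6.98 with OTX015, against 8.21, 7.26 and 7.45 with DMSO and 8.05, 7.27 and 7.10 in untreated cells. Each OTX015 array was the lowest of its time, with a log2 fold change of -0.33 (SE 0.113, adjusted p = 0.142). In MDA-MB-231 SMAD6 read 6.33, 6.62 and 6.93 with OTX015, the first of these below the floor, against 6.54, 6.65 and 6.84 with DMSO and 6.71, 6.69 and 6.70 in untreated cells (log2 fold change -0.05, 95% interval -0.25 to 0.14, adjusted p = 0.857). SMAD6 was lower in MDA-MB-231 than in MDA-MB-468 without drug, by a log2 difference of -0.87 (SE 0.079, adjusted p = 3.1e-07). SMAD7, through its measured probe (ILMN_2203891), read 6.43 to 6.56 with OTX015 and 6.46 to 6.63 with DMSO in MDA-MB-231, and 6.82 to 6.98 with OTX015 and 6.83 to 7.05 with DMSO in MDA-MB-468. The MDA-MB-231 arrays gave SMAD7 a log2 fold change of -0.06 (95% interval -0.22 to 0.11), and the MDA-MB-468 arrays gave it -0.05 (95% interval -0.25 to 0.15). Its level without drug differed between the lines by -0.36 (SE 0.055, adjusted p = 5.8e-05), under the threshold of size. The second SMAD7 probe exceeded the floor on 1 of 18 arrays and was not tested.

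The ID genes were the members that rose with OTX015, in MDA-MB-468. ID3 read 10.70, 10.59 and 10.47 at 4, 8 and 24 h with OTX015, against 10.21, 9.44 and 9.35 with DMSO and 10.14, 9.43 and 9.10 in untreated cells. All 3 OTX015 arrays lay above all 6 undrugged arrays, and the log2 fold change was 0.92 (SE 0.159, adjusted p = 0.0218), or 1.89-fold. ID1, through its measured probe (ILMN_1664861), read 8.71, 8.68 and 8.87 with OTX015, against 8.39, 7.88 and 8.14 with DMSO and 8.37, 8.01 and 8.10 in untreated cells. Its groups did not overlap either, and the log2 fold change was 0.62 (SE 0.117, adjusted p = 0.0278). Of all probes in this line, 12.7% had OTX015 arrays outside the range of the undrugged arrays, above or below.

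Both ID2 probes gave nearly the same response. The first (ILMN_1793990) read 8.59, 8.24 and 8.04 with OTX015, against 7.94, 7.26 and 7.16 with DMSO and 8.06, 7.33 and 7.49 in untreated cells. The second (ILMN_2086095) read 9.02, 8.19 and 8.04 with OTX015, against 8.14, 7.30 and 7.34 with DMSO and 8.35, 7.52 and 7.62 in untreated cells. At each time the OTX015 array was the highest of the 3, while the 24 h OTX015 array, and for the second probe also the 8 h one, overlapped the 4 h undrugged arrays. The log2 fold changes were 0.83 (SE 0.107, adjusted p = 0.0082) and 0.82 (SE 0.091, adjusted p = 0.0049). Among the members, these 4 ID probes passed and no other did, in a contrast where 4.38% of all probes passed. The median log2 fold change of the 8 member probes measured in this line, FST left out, was 0.35, against -0.01 over all probes tested. This median falls in a gap between the ID probes, at 0.62 to 0.92, and the others of the 8, at -0.90 to 0.08. It does not describe a rise of the whole set.

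**Figure D2:**
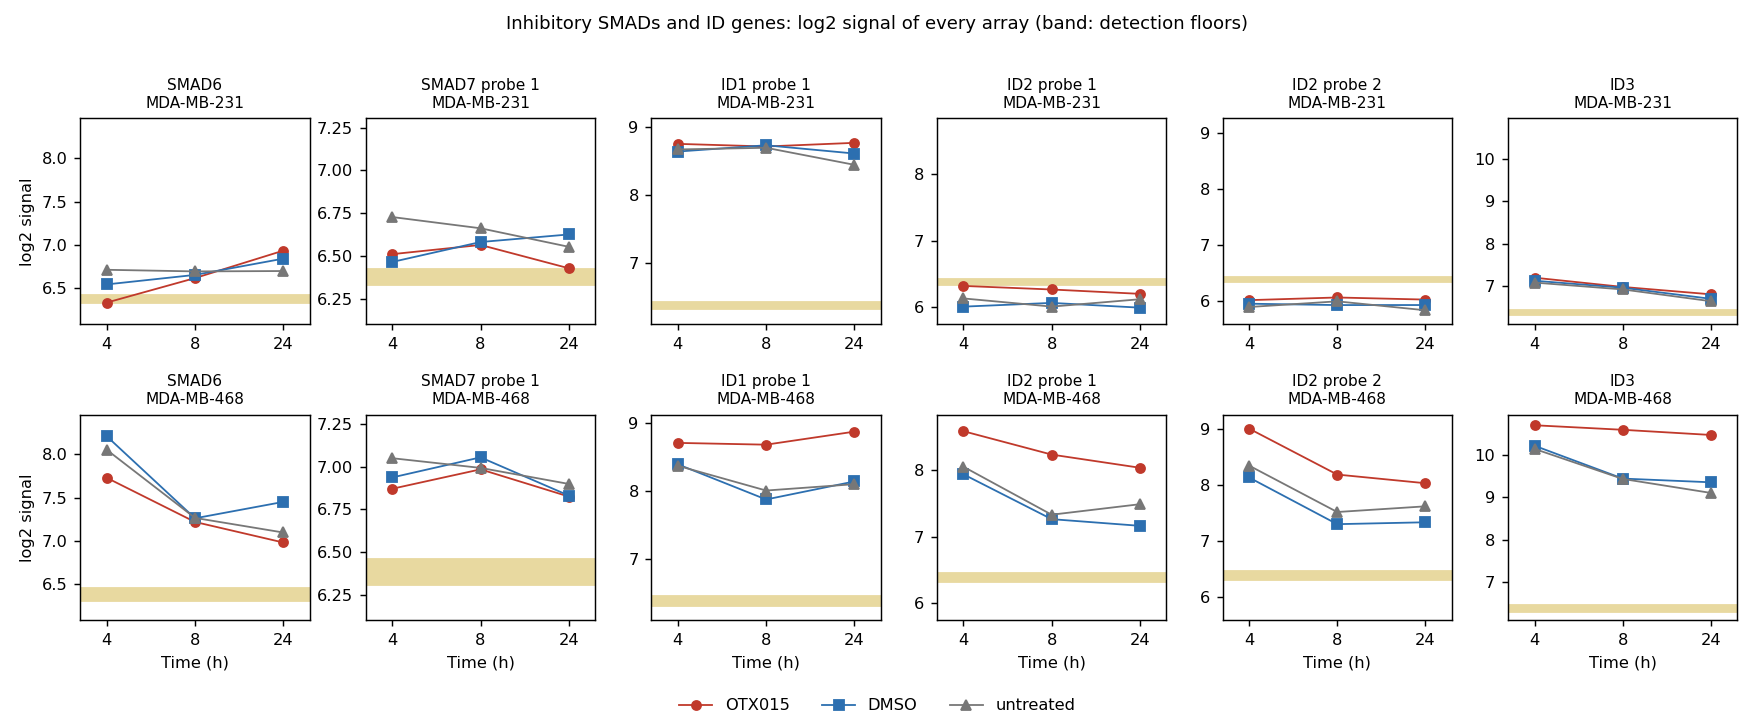
Log2 signal (vertical axis) of the SMAD6, SMAD7, ID1, ID2 and ID3 probes on each array at 4, 8 and 24 h (horizontal axis, evenly spaced), laid out by line with MDA-MB-231 in the upper row and MDA-MB-468 in the lower row. In MDA-MB-468 the OTX015 points of ID1, ID2 and ID3 lie above the DMSO and untreated points at every time, and in MDA-MB-231 both ID2 probes lie under the band of detection floors.

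These 4 calls depended on how the arrays were scaled and on single arrays. Under scaling to a common median in place of quantile normalization none passed, with log2 fold changes of 0.29 to 0.59 against a median over all probes of -0.12. limma called 0 of the 23630 probes tested there, 3564 of which had an unadjusted p under 0.05. The direction stayed positive in every setting tried. Leaving out 1 MDA-MB-468 array left 0 of the 4 probes past the thresholds without the DMSO 8 h array (log2 fold changes 0.54 to 0.83), 1 without the DMSO 24 h array (0.60 to 0.90), 2 without the DMSO 4 h array (0.70 to 1.01), 2 without the untreated 8 h array (0.62 to 0.92), 2 without the OTX015 8 h array (0.55 to 0.82), 2 without the OTX015 24 h array (0.54 to 0.89) and 3 without the untreated 4 h array (0.62 to 0.92). All 4 remained past them without the OTX015 4 h or the untreated 24 h array.

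In MDA-MB-231 ID1 and ID3 did not respond past the thresholds. ID1 read 8.75, 8.71 and 8.77 with OTX015, against 8.64, 8.73 and 8.61 with DMSO and 8.67, 8.69 and 8.44 in untreated cells (log2 fold change 0.08, 95% interval -0.08 to 0.25, adjusted p = 0.665). ID3 read 7.20, 6.98 and 6.80 with OTX015, against 7.12, 6.96 and 6.70 with DMSO and 7.08, 6.92 and 6.64 in untreated cells (log2 fold change 0.07, 95% interval -0.08 to 0.21, adjusted p = 0.721). Both intervals lie below the log2 fold changes measured in MDA-MB-468, but this leaves out the error of the latter. The difference between the lines is tested itself further below. The ID3 signal was near the MDA-MB-231 floors of 6.33 to 6.43, which limits the size of response that can be read from it. ID2 was below the floor on all 9 MDA-MB-231 arrays with both probes, so its response there was not measured. Of the 7 measured member probes other than FST, limma called 0 in this line, 1 of them (BMP4) had an unadjusted p under 0.05, and their log2 fold changes ran from -0.29 to 0.08.

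The levels of the ID genes differed between the lines without drug. ID3 was lower in MDA-MB-231 than in MDA-MB-468 by a log2 difference of -2.71 (SE 0.087, adjusted p = 4.3e-12), which is 6.54-fold. ID2 was at least 2.27-fold and, with its second probe, at least 2.55-fold lower in MDA-MB-231. ID1 went the other way, higher in MDA-MB-231 by 0.48 (SE 0.070, adjusted p = 3.4e-05), just under the threshold of size. Besides FST, 6 member probes were above the floor on at least 3 arrays of each line. Of these, FSTL3 passed higher in MDA-MB-231, and 3 passed lower in MDA-MB-231 (INHBB, SMAD6 and ID3), while ID1 and SMAD7 did not pass. Of the 18267 probes measured in both lines, 34.4% passed. The brighter FST probe is left out, because its choice favoured probes high in MDA-MB-231. The second FST probe, BMP4 and both ID2 probes were tested only because of the line where they were high, so they are not counted.

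**Figure D3:**
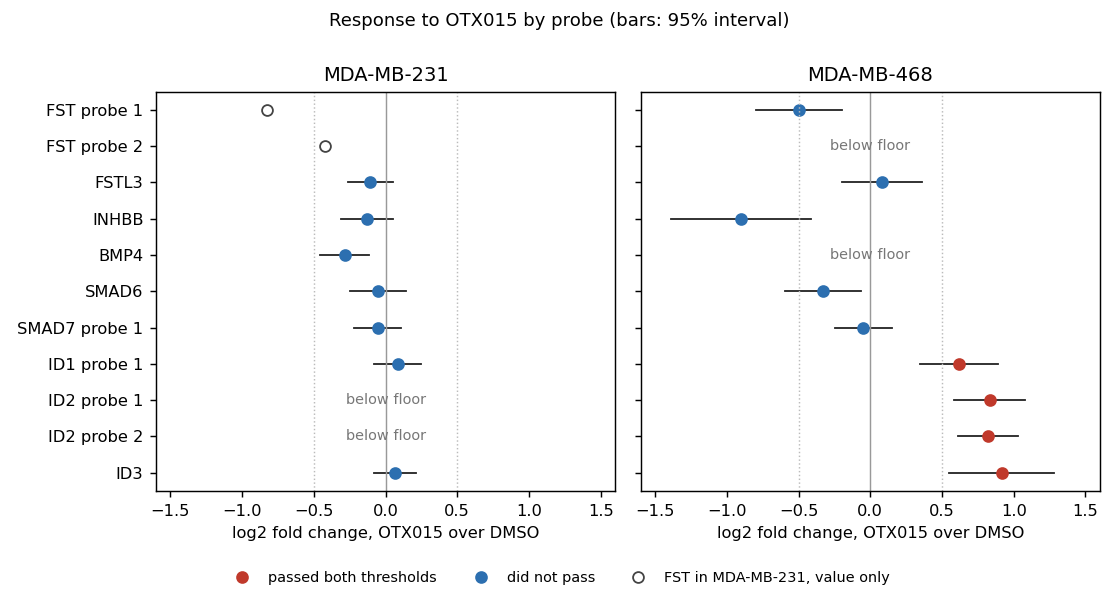
Log2 fold change of OTX015 over DMSO (horizontal axis) for each tested member probe (rows), in MDA-MB-231 on the left and MDA-MB-468 on the right, with bars for the 95% interval and dotted lines at the fold threshold. The 4 ID probes lie at 0.62 to 0.92 in MDA-MB-468 and INHBB at -0.90 with a wide interval, while the measured members other than FST lie between -0.29 and 0.08 in MDA-MB-231.

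The difference between the lines' responses was tested itself. For ID3 it was -0.85 (MDA-MB-231 minus MDA-MB-468, SE 0.175, adjusted p = 0.0265), and for ID1 -0.53 (SE 0.140, adjusted p = 0.0728), which did not pass. For ID2 no difference is given, because its MDA-MB-231 response was not measured. ID3 was the 1 call among the 6 members other than FST measured in both lines, where 1.66% of the probes measured in both lines and 1.9% of all probes passed. This call was not stable: it was lost under 15 alternatives, with adjusted p-values of 0.0575 to 0.482 there. They include an offset of 16 (adjusted p = 0.0593), median scaling (-0.48, adjusted p = 0.482), no time term (adjusted p = 0.456) and leaving out any 1 of the 6 OTX015 and DMSO arrays of MDA-MB-231 (adjusted p = 0.0766 to 0.0976). The difference kept its sign in all of them. The ID3 signal in MDA-MB-231 lay near the floor, which limits the response read there. For FST the responses were -0.82 in MDA-MB-231 cells and, at the higher dose, -0.50 in MDA-MB-468 cells, the second from OTX015 arrays below the floor. No test is given, because the first value was the basis for choosing it.

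Several members also changed with time in undrugged MDA-MB-468 cells, and this moved the level against which the drug was read. Each time had 1 untreated and 1 DMSO array, which served as its replicates. The p-values here measure the spread between those arrays, and no repeat culture of a time was available. Comparing 24 h with 4 h over the untreated and DMSO arrays, ID3 fell by 0.95 (SE 0.086, adjusted p = 1.2e-05), SMAD6 by 0.86 (SE 0.105), ID2 by 0.67 and 0.77, INHBB by 0.64 (SE 0.080, adjusted p = 0.000148) and FST by 0.54 (SE 0.092, adjusted p = 0.00111). The FST difference was the least stable of these: it was -0.099 under cyclic loess normalization (adjusted p = 0.408), and it was under the threshold of size with no background correction (-0.41), with the deposited values (-0.42) and without the untreated 24 h array (-0.45). ID1 was 0.26 lower, under the threshold of size, and FSTL3 and SMAD7 did not pass. Among the 8 probes measured in this line other than FST, 5 fell, both ID2 probes among them, and 0 rose. Of all probes 13.3% passed, 5.08% lower and 8.17% higher at 24 h. The 4 h undrugged arrays of this line stand apart from the later ones: mean raw intensity was 259 to 336 on the arrays of 8 and 24 h and 452 and 503 on those of 4 h, and the part of this in the fall was not tested. In undrugged MDA-MB-231 cells no member probe passed with limma, against 0.69% of all probes. Of the 7 measured probes other than FST, 4 had an unadjusted p under 0.05, with the largest difference for ID3 at -0.43 (SE 0.086, adjusted p = 0.0429), which was under the threshold of size.

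Read at each time against the mean of the DMSO and untreated arrays, the MDA-MB-468 responses did not keep 1 size. INHBB was lower by 1.57 at 4 h, 0.72 at 8 h and 0.46 at 24 h. Its response at 24 h minus that at 4 h was 1.11 (SE 0.128, adjusted p = 7.3e-05), made up of OTX015 arrays that read 8.46 at 24 h and 7.99 at 4 h and of undrugged arrays that read 8.90 and 8.94 at 24 h and 9.53 and 9.58 at 4 h. The ID3 response was 0.52 at 4 h, 1.15 at 8 h and 1.24 at 24 h, a difference of 0.72 between the last and the first (SE 0.154, adjusted p = 0.00575). Over these times the OTX015 arrays read 10.70, 10.59 and 10.47, close to each other beside the undrugged arrays, which read 9.10 and 9.35 at 24 h and 10.14 and 10.21 at 4 h.

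ID1 responded by 0.33, 0.74 and 0.75 at 4, 8 and 24 h, with a difference of 0.43 between 24 h and 4 h that did not pass (adjusted p = 0.0589). ID2 responded by 0.59, 0.94 and 0.71 with its first probe and by 0.77, 0.78 and 0.56 with its second, without a difference past the thresholds. FST responded by -0.85, -0.51 and -0.29, but its OTX015 arrays were all below the floor, so no test of its change over time is given. INHBB and ID3 were the 2 calls among the 8 measured probes other than FST, beside 15.7% of all probes that passed. These tests take their spread from pairs of untreated and DMSO arrays, and the lone OTX015 array of each time is assumed to vary as they do, so the spread between OTX015 arrays is not in these p-values.

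**Figure D4:**
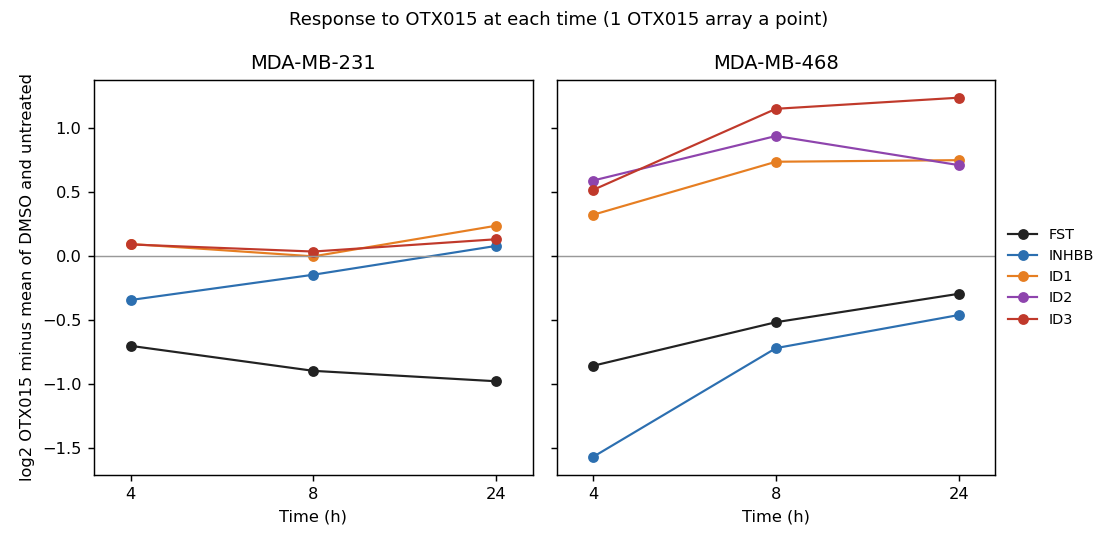
Response to OTX015 (vertical axis, log2 signal with OTX015 minus the mean of the DMSO and untreated arrays of that time) at 4, 8 and 24 h (horizontal axis, evenly spaced) for the brighter FST probe, INHBB, ID1, the first ID2 probe (MDA-MB-468 only) and ID3. In MDA-MB-468 INHBB lies at -1.57, -0.72 and -0.46 and ID3 at 0.52, 1.15 and 1.24, while in MDA-MB-231 FST lies at -0.70, -0.89 and -0.97.

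In MDA-MB-231 the FST response was -0.70 at 4 h, -0.89 at 8 h and -0.97 at 24 h, so most of it was present at the first time measured. BMP4 responded by -0.26, -0.46 and -0.14. INHBB responded by -0.34, -0.14 and 0.08 and SMAD6 by -0.29, -0.06 and 0.16, and their differences between 24 h and 4 h, 0.42 and 0.46, did not pass (adjusted p = 0.729 and 0.871). limma called 0 of the 7 measured member probes other than FST here, 2 of which had an unadjusted p under 0.05, and 0.00423% of all probes passed, which is 1 probe.

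No member differed past the thresholds between the vehicle and untreated cells. Comparing DMSO with untreated cells, limma called 0 member probes in either line and 0% of all probes in both, although 648 of 23631 probes in MDA-MB-231, and 98 for the MDA-MB-468 arrays, had an unadjusted p under 0.05. The log2 differences of the measured members other than FST lay between -0.09 and 0.06 for MDA-MB-231, and for MDA-MB-468 they lay between -0.24 and 0.17, where the largest in size was that of the second ID2 probe. For the brighter FST probe they were -0.06 (MDA-MB-231) and -0.11 (MDA-MB-468).

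Around the members, 79 other genes of the TGF-beta family pathway were followed: ligands, extracellular antagonists, receptors, signal-carrying SMADs, intracellular SMAD regulators and target genes. The array held 73 of them and 50 were tested, each by its brightest probe. In MDA-MB-231, 2 rose, 1 fell and 47 did not pass, in a contrast where 0.427% of all probes passed, with a median log2 fold change of 0.0050 over the 50, against -0.0023 over all probes. Among the 47, BMP5, BMP7, ENG, ID4, SMAD1 and TGFB3 were below the floor on all OTX015 and DMSO arrays, so their response was not measured. BAMBI, a decoy receptor that blocks TGF-beta and BMP signals, rose by 0.54 (SE 0.072, adjusted p = 0.000712), GDF11, a ligand of the activin branch, rose by 0.54 (SE 0.074), and the ligand TGFB2 fell by 0.51 (SE 0.077).

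In MDA-MB-468, 3 of the 50 rose, 1 fell and 46 did not pass, in a contrast where 4.38% of all probes passed, with a median of -0.0064 over the 50, against -0.012 over all probes. Among the 46, BMPER, FSTL1, GDF15, MSX2, NOG, SMAD4 and SMURF2 were below the floor on all OTX015 and DMSO arrays. Their response in this line was not measured. GDF11 rose by 1.09 (SE 0.146, adjusted p = 0.00965) and TGFBR3, a co-receptor, by 0.70 (SE 0.160, adjusted p = 0.0469). BMP6, a BMP ligand, was below the floor on all 3 DMSO arrays and was at least 1.69-fold higher with OTX015. TGIF2, a repressor that binds SMADs, fell by 0.96 (SE 0.123). None of the 7 tested extracellular antagonists other than FST and FSTL3, the 6 SMADs that carry the signal or the 7 other target genes passed in either line. Those of them named above as below the floor in a line were not measured there.

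The genes whose levels most resembled FST over the 9 MDA-MB-231 arrays were RGS7 (Pearson r = 0.985), IL24 (0.981), PRR16 (0.978), HAS2 (0.975) and CABLES1 (0.969), among 1301 probes of 1 gene that were above the floor on all 9 arrays and had an SD of at least 0.2. The second FST probe followed the first with r = 0.909. These are descriptions across 9 arrays that share treatments and times, and since FST was chosen for its lower level on the OTX015 arrays, any gene lower on those arrays ranks high. HAS2, which makes hyaluronan, was lower with OTX015 by a log2 difference of -0.83 from DMSO, RGS7 by -0.75 and IL24 by -0.57. No such ranking was made in MDA-MB-468, where FST was below the floor on all OTX015 arrays.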

How the data were processed

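RNA of the 18 samples was labelled with biotin and hybridized to Illumina HumanHT-12 arrays. The authors deposited 1 table of raw probe intensities, exported from GenomeStudio per the labels (version not given in the sources used here), and 1 table of log2 expression values. Both tables ranked the probes of every array alike. The intensities were taken as the start: they were background-corrected with normexp (offset 50), quantile-normalized between arrays and put on the log2 scale. The deposited log2 values served as an alternative. Gene names came from the platform annotation, with 30113 probes of 1 gene, 8 of several and 17110 unnamed, and 30074 matched RefSeq by gene identifier. A context gene was read by its brightest probe, and member probes were kept apart.

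Linear models were fitted with limma 3.58.1 in R 4.3.3 over all probes tested. The drug and vehicle contrasts used treatment plus time on the 9 arrays of a line. The contrasts of 24 h with 4 h without drug used the untreated and DMSO arrays of both lines. The other contrasts used all 18 arrays. With 1 array per condition and no slide or scan record used here, no batch was tested. Where a group was below the floor on all its arrays, only a bound is given: the brighter group's mean against the floor. The scripts were tested on simulated data. All members with every probe are named. Context genes are named where their brightest probe passed in a drug contrast, and those under the other observations were picked after their values were seen. The members and lists were chosen with earlier results of these data known. Promoters came from RefSeq (GRCh38.p14), and motifs were counted with Python 3.11.15. Figures were drawn with matplotlib 3.10.9. The number of arrays limits the precision. The alternatives were no background correction, another offset (16), cyclic loess or median scaling, the deposited values, other filters, a trended fit, other references, no time term, and leaving out each array or time.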

Additional observations from a re-analysis of the deposited data

Results flagged for a closer look

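A total of 3 member results differed between lines or times by a test of the difference itself, with limma and an adjusted p past the threshold. Between the lines, the response to OTX015 differed for ID3 by -0.85 (MDA-MB-231 minus MDA-MB-468, SE 0.175, adjusted p = 0.0265), a call lost under 15 alternatives. The dose differed between the lines, so line and dose cannot be told apart. The ID3 signal in MDA-MB-231 also lay near the floor.

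Between 24 h and 4 h in MDA-MB-468, the response differed for INHBB by 1.11 (SE 0.128, adjusted p = 7.3e-05) and for ID3 by 0.72 (SE 0.154, adjusted p = 0.00575). Both rest on 1 OTX015 array a time, whose own spread is not in these p-values, and on the 4 h undrugged arrays, whose mean raw intensities of 452 and 503 were above those of the later undrugged arrays.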

How the results depend on the processing

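With OTX015 against DMSO in MDA-MB-468, limma called 4 member probes, against 0 under median scaling (5 with an unadjusted p under 0.05), 0 with no time term (6 with one), 2 with the OTX015 and DMSO arrays only, 5 with an offset of 16, the stricter filter or the trended fit, and 6 with untreated and DMSO arrays together as the reference, which adds FST and INHBB. Leaving out 1 array or 1 time gave 0 to 5 calls, with 0 without the 8 h arrays and 1 without the 24 h arrays. For the difference between the lines it called 3, of which both ID2 probes were unmeasured in MDA-MB-231, against 1 with an offset of 16, 0 under median scaling (4 with an unadjusted p under 0.05), 1 with the OTX015 and DMSO arrays only, 0 with no time term (5 with one) and 0 to 4 when 1 array or time was left out. It was 0 without the 8 h or the 24 h arrays, and 1 without the 4 h arrays, without the DMSO or OTX015 array of any time in MDA-MB-231, or without the DMSO 8 h, OTX015 8 h or DMSO 24 h array of MDA-MB-468. In undrugged MDA-MB-231 cells 1 member probe passed over time under cyclic loess, against 0. The cause was not tested. The other counts stayed within 1.5 times under the alternatives run, and the levels between the lines kept their directions. Single calls of FST, FSTL3, INHBB and ID3 also changed, with the values above. The FST response at 24 h minus 4 h in MDA-MB-468, 0.56 with signals below the floor, was 0.20 under cyclic loess. ID1 between the lines passed the threshold of size under 6 alternatives (0.51 to 0.59) and SMAD7 under 1 (-0.52). The ID1 response also differed between the lines without the OTX015 4 h array of MDA-MB-468 (-0.67), and under median scaling ID1 in MDA-MB-468 passed over time (-0.86) and for the response over time (0.91). No called member reversed. Values near 0 did: FSTL3 in MDA-MB-468 was -0.039 under median scaling and -0.063 to 0.20 over the arrays left out, SMAD6 in MDA-MB-231 was -0.165 to 0.064 and SMAD7 there was -0.125 to 0.020. The SMAD7 difference between lines was 0.13 under median scaling and -0.078 to 0.082 over the arrays left out. Median scaling shifted the median of all probes to -0.12 for OTX015 in MDA-MB-468, 0.19 for the difference between lines, 0.11 and -0.34 over time in undrugged MDA-MB-231 and MDA-MB-468, and 0.22 for the response at 24 h minus 4 h in MDA-MB-468. The share of calls that were higher was then 85.9% against 57.4% for OTX015 in MDA-MB-231, 95.8% against 57.8% for the difference between lines, 39.8% against 49.9% for the lines without drug, 11.5% against 61.7% over time in MDA-MB-468 and 79.3% against 48.3% for the response over time there. Signal near the floor limits FST and FSTL3 in MDA-MB-468, ID3 in MDA-MB-231, SMAD6 and SMAD7. The time term pairs the arrays of a line by time, and the fit without it is given above. The labels give no replicate numbers for another pairing.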

Other observations

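The context genes also differed between the lines without drug: of the 50 tested, 12 were higher in MDA-MB-231, 24 did not pass with limma, and 14 were higher in MDA-MB-468, in a contrast where 34.1% of all probes passed. Of those that passed, BMPER, FSTL1, GDF15, NOG and SMAD4 were below the floor on all undrugged MDA-MB-468 arrays. BMP5, BMP7, ENG and ID4 were below it on all undrugged MDA-MB-231 arrays. These genes were tested only because of the line where they were high, so nothing is read from the counts. The genes named here were singled out after their values were seen. SMAD4, the common partner of the signal-carrying SMADs, averaged 9.48 ± 0.15 over the 6 undrugged MDA-MB-231 arrays and was below the floor on all 6 of MDA-MB-468, a difference of at least 8.82-fold. FSTL1, a gene of the follistatin-like group, was likewise below the floor in MDA-MB-468 and at least 10.5-fold higher in MDA-MB-231. Of the other SMADs that carry the signal, SMAD3 averaged 9.65 ± 0.13 in MDA-MB-231, against 8.65 ± 0.27 in MDA-MB-468 (SD, n = 6 arrays each), and SMAD5, which carries BMP signals, averaged 9.91 ± 0.051 in MDA-MB-231, against 9.51 ± 0.064 in MDA-MB-468, a difference under the threshold of size. ID4, the fourth gene of the ID family, was below the floor without drug in MDA-MB-231 and at least 1.73-fold higher in MDA-MB-468, as ID2 and ID3 were higher there. Unlike those 2 it read 7.09 with OTX015 and 7.09 with DMSO in MDA-MB-468 (log2 fold change -0.0038, SE 0.139, adjusted p = 0.993), though this difference between genes was not tested. The receptor gene TGFBR2 was higher in MDA-MB-231 by 2.35 (SE 0.134), and BAMBI was lower in MDA-MB-231, with a log2 difference of -2.51 (SE 0.056).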
